A study of Acrobeloides nanus with 194 samples.

Results

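In the parthenogenetic nematode Acrobeloides nanus, 2045 of 16853 transcripts had their highest mean level in embryos of 5 to 16 cells, and 3 of these also varied enough between stages to be described here, a share of 0.0178% of all transcripts. The 3 were row 1071, row 8764 and row 11958. The count table carries no gene identifiers, so a transcript is called here by its position in the table, counted from the first line of values, and no gene name or sequence is given. Rows were chosen on the data themselves. Each library's counts were turned into CPM, which are counts scaled so that all libraries have 1 common total, then into log2(CPM + 50), and averaged over libraries in 4 bins of stages. A row was kept if its highest and lowest bins differed by at least 1 on that scale and the 5 to 16 cell bin was highest. The rule used the libraries of these stages with at least 10000 counts, of which 45 were from 1 to 4 cells, 33 from 5 to 16 cells, 36 from the stages titled E2, E4 and E8, and 32 from the stages titled VE, Comma and LE. The bin means are therefore given as a description, with no test.

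The series held 150 libraries of at least 10000 counts and 44 with fewer, each from 1 manually separated blastomere or a small clump of cells of an embryo, made with CEL-Seq2. That method copies the 3' ends of transcripts and marks each sample with its own barcode before pooling. The labels name no treatment, so the groups differ in stage and in the cell taken, and each early library was named for its cell. The groups used here were AB, EMS, C, P4 and D cells of 5- and 6-cell embryos, the AB, MS, E, C, D and P4 cells or mixtures of 13-cell embryos, the 15- and 16-cell libraries, and the cells of earlier and later embryos. An embryo of those stages was taken apart, so cells of the same embryo can be present in several libraries.

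In nematode embryos the first divisions are unequal and each daughter has its own name and fate. In the related species Caenorhabditis elegans, AB gives much of the skin, the nervous system and part of the pharynx. EMS divides into MS, a source of muscle and pharynx, and E, the only source of the gut. C gives skin and muscle, D gives muscle, and P4 founds the germ line. The egg starts with maternal RNA and adds transcripts of its own genome as it divides. Acrobeloides nanus is known for early cells that can take over the role of a neighbour that has been lost.

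Depth differed widely between libraries. Totals ran from 973 to 1217040 counts with a median of 28629.5. The 33 libraries of 5 to 16 cells held 10393 to 432918 counts with a median of 31301, so that 0 counts in the shallowest of them allowed a level of up to 289 CPM, a limit of 3 counts that covers counting error only. On the first principal component of the 885 most counted rows, which held 24.6% of the variance, 78 of 150 libraries scored below 0. They are called low-score libraries here and include 18 of the 33 libraries of 5 to 16 cells. Row 8764 and row 11958 were among the 885 rows, so the score is not independent of their levels. No library of a group was a copy of another. In the most similar pair, compared over 5718 rows, the chi-square divided by its degrees of freedom was 2.55.

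In bin means the peak named in the selection stood little above the E2 to E8 bin, while single stages within these bins differed widely for row 8764 and row 1071. Row 11958 averaged 7.36 ± 1.03, 8.55 ± 1.36, 8.37 ± 1.22 and 8.21 ± 0.75 on the log2(CPM + 50) scale (SD over libraries) at 1 to 4 cells, 5 to 16 cells, E2 to E8, and VE to LE. Row 8764 averaged 7.04 ± 1.06, 8.19 ± 2.08, 8.15 ± 1.86 and 7.43 ± 1.27 over the same bins. Row 1071 averaged 6.39 ± 0.81, 7.23 ± 1.86, 7.11 ± 1.5 and 6.18 ± 0.73. The step up to 5 to 16 cells was 1.19 for row 11958, 1.15 for row 8764 and 0.85 for row 1071, each against 1 to 4 cells. Against E2 to E8 the 5 to 16 cell bin was higher by 0.18, 0.04 and 0.12 for row 11958, row 8764 and row 1071, all well inside the SD of either bin.

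Medians ranked the bins differently from means for 2 of the 3 rows. Median levels in the 4 bins, in stage order, were 82.8, 351, 292 and 226 CPM for row 11958. They were 73.6, 167.7, 227 and 103.9 CPM for row 8764 and 20.7, 47.7, 49.8 and 15.0 CPM for row 1071. For row 8764 and row 1071 the median was thus lower at 5 to 16 cells than at E2 to E8. Of the 33 libraries of 5 to 16 cells, 17 lay above the E2 to E8 median for row 11958, 13 for row 8764 and 16 for row 1071.

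**Figure D1:**
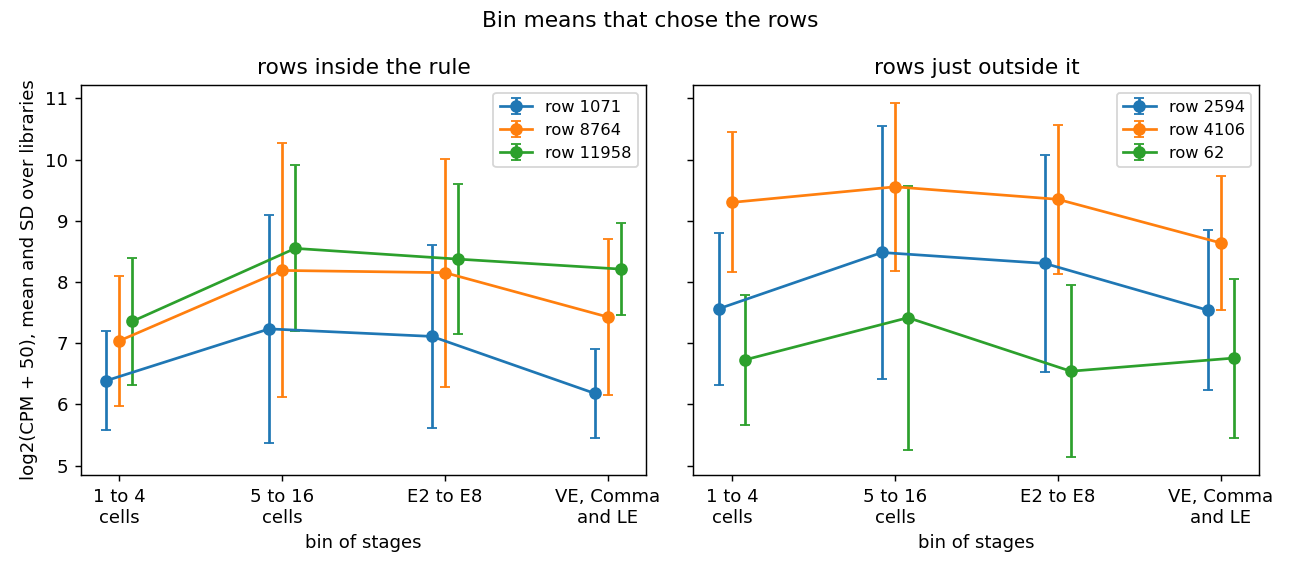
Mean and SD over libraries of log2(CPM + 50) in the 4 bins of stages, for the 3 rows that met the rule (left) and the 3 rows closest below its span of 1 (right). In all 3 chosen rows the means at 5 to 16 cells and at E2 to E8 differ by less than 0.2, and the bars are largest in these middle bins for row 8764 and row 1071.

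The threshold did not separate the 3 rows sharply from their neighbours. Their spans between highest and lowest bin were 1.05, 1.15 and 1.19 for row 1071, row 8764 and row 11958. The rows just below the limit were row 2594 with 0.94, row 4106 with 0.92 and row 62 with 0.87, and all 3 were also highest at 5 to 16 cells. The same span of 1 was reached by 0.884% of all rows with their highest mean at 1 to 4 cells, 0.214% with it at E2 to E8 and 0.166% with it at VE to LE. When each of the 33 libraries was left out in turn, 1 to 4 rows met the rule. Row 11958 met it in 33 of the 33 repeats, row 1071 in 26 and row 8764 in 22. With libraries of at least 5000 counts 10 rows met it and none of the 3 was among them.

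A minority of libraries carried the level of row 1071 and row 8764. Above 500 CPM stood 7 of the 33 libraries of 5 to 16 cells for row 1071, 11 for row 8764 and 13 for row 11958. At 1 to 4 cells 0, 1 and 3 of 45 libraries did so for row 1071, row 8764 and row 11958, and at E2 to E8 4, 13 and 8 of 36. At VE to LE the numbers were 0, 3 and 5 of 32. At the other end, 15 of the 33 libraries of 5 to 16 cells had 0 counts of row 1071, 5 had 0 of row 8764 and 1 had 0 of row 11958. The 3 highest libraries held 56.4% of the summed CPM of row 1071 over the bin, 45.9% of that of row 8764 and 28.3% of that of row 11958.

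The highest library of row 1071 was a 13-cell library titled CDP4, with 280 counts and 2628 CPM (95% Wilson interval of counting error 2338 to 2954). A 16-cell MS library came next with 2540 CPM. For row 8764 the highest value was in a 15-cell library of only 10393 counts, where 43 counts gave 4137 CPM (interval 3073 to 5568), followed by the same CDP4 library with 419 counts, 3933 CPM. Row 11958 was highest in a 6-cell EMS library with 84 counts, 1961 CPM (interval 1584 to 2427). The CDP4 library was thus first or second for row 1071 and row 8764, while another library was first for row 11958.

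**Figure D2:**
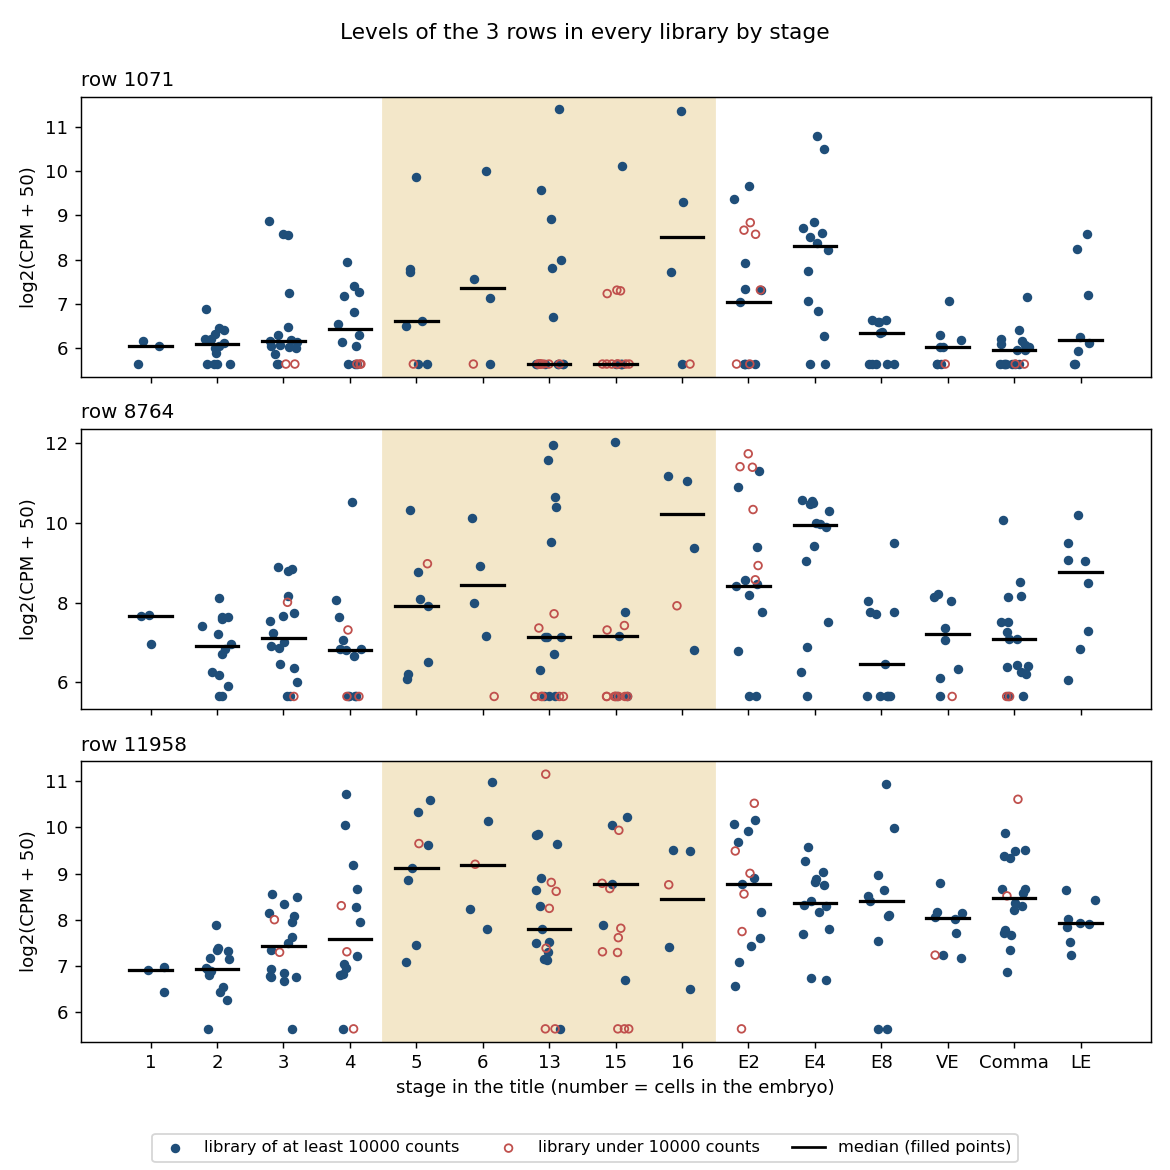
Level of each row as log2(CPM + 50) in every library, by the stage in its title. Filled points are libraries of at least 10000 counts with their median as a bar, open points are libraries under 10000 counts, and the shaded stages are those of the 5 to 16 cell bin. Row 1071 and row 8764 spread over most of the axis at 13, 15 and 16 cells, while row 11958 has higher medians at 5 and 6 cells than at 1 to 4 cells.

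Stage by stage, row 11958 climbed before the bin began. Its median was 70.1 CPM in the 3 one-celled embryos, 72.9 at 2 cells (14 libraries), 123.4 at 3 cells (16) and 148.1 at 4 cells (12). It stood at 508 CPM at 5 cells (7 libraries), 667 at 6 cells (4), 174.2 at 13 cells (13), 386 at 15 cells (5) and 396 at 16 cells (4). Later medians were 387 at E2, 282 at E4, 292 at E8, 214 at VE, 305 at Comma and 193.2 at LE. Ordered by mean log2(CPM + 50), 6 cells came first with 9.29 ± 1.52 and 5 cells next with 9.01 ± 1.34, and 2 cells and 1 cell came last with 6.91 ± 0.56 and 6.78 ± 0.30.

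Row 8764 was present in the egg and in most later stages. Its medians were 152.01 CPM at 1 cell, 69.3 at 2, 89.4 at 3, 62.7 at 4, 190.7 at 5, 317 at 6, 91.4 at 13, 92.95 at 15 and 1343 at 16 cells. They were 293 at E2, 930 at E4, 37.1 at E8, 99.3 at VE, 85.6 at Comma and 395 at LE. The stages with the highest mean log2 levels were 16 cells, at 9.60 ± 2.04 over 4 libraries, and E4, at 9.07 ± 1.74 over 14, so the row had its other high stage outside the bin.

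Row 1071 was the rarest of the 3 in detection. Its medians were 15.9 CPM at 1 cell, 17.9 at 2, 21.2 at 3, 36.2 at 4, 47.7 at 5, 115.1 at 6, 0 at 13, 0 at 15 and 369 at 16 cells. They were 82.7 at E2, 265 at E4, 31.5 at E8, 15.3 at VE, 12.5 at Comma and 23.1 at LE. As for row 8764, 16 cells (8.50 ± 2.41) and E4 (7.98 ± 1.58) stood highest among these stages on the log2 scale. For each of the 3 rows, no neighbouring pair in the order of stage means differed by more than the pooled SD of the pair.

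Within the bin, the later embryos were compared with the earlier ones, 22 libraries of 13 to 16 cells against 11 of 5 and 6 cells. With edgeR's quasi-likelihood test and Benjamini-Hochberg adjustment over all rows tested, 7 of 289 rows changed (2.42%), and neither of the 2 chosen rows tested was among them. The median log2 fold change over all tested rows was 0.24, or 0.13 with DESeq2's size factors. Row 11958 had lower levels in the later embryos, with a median of 226 CPM (range 0 to 1155) at 13 to 16 cells and 508 CPM (85.4 to 1961) at 5 and 6 cells. Its log2 fold change was -1.11 ± 0.48 (SE, adjusted p = 0.221 by edgeR), and the ranges overlapped. Without the second 5-cell C library it passed the test, with -1.53 and an adjusted p of 0.0442 by edgeR, among 20 of 309 rows (6.47%), and over all settings tried the adjusted p ran from that value to 0.904. Row 8764 had a median of 92.4 CPM (0 to 4137) at 13 to 16 cells and 202 CPM (18.1 to 1232) at 5 and 6 cells. Its fitted log2 fold change was 1.24 ± 0.80 (SE, adjusted p = 0.464 by edgeR), so that its median and its fitted change differed in sign. Row 1071, at a median of 0 CPM (0 to 2628) in the later and 90.1 CPM (0 to 967) in the earlier libraries, did not pass the filter on low counts.

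At 13 cells the observed levels of row 1071 and row 8764 divided by sample number, and both sets of libraries held AB and MS cells. The rule had used these values. Without the MS2 or the CDP4 library neither row met it, and without the AB, AB2 or AB3 library row 8764 did not. These high levels are therefore partly fixed by the choice of rows, and the tests of 13-cell AB given below are not independent of it. The 4 libraries with sample numbers 65 to 68, titled AB, AB2, MS2 and CDP4, held 435, 203, 714 and 2628 CPM of row 1071, in that order. Their levels of row 8764 were 1556, 1304, 3010 and 3933 CPM, and those of row 11958 were 859, 351, 879 and 751 CPM. The 9 libraries with sample numbers over 100 held 0 to 174.7 CPM of row 1071, 0 to 689 CPM of row 8764 and 0 to 427 CPM of row 11958. Among those 9, the AB3 library had the highest value of each row. The observed values of the sets did not overlap for row 1071 and row 8764, but did for row 11958, whose AB2 library lay below the AB3 library. For row 1071 a full separation cannot be read. By the counting limit given above, 0 counts in the shallowest of the 9, of 10941 counts, allowed more than the 203 CPM of AB2. How many of all rows also lack overlap between these sets was not counted. Depth moved with the split by sample number. The 4 libraries held 96675 to 250766 counts and none was a low-score library, whereas the 9 held 10941 to 103039 counts, with a median of 22246, and 8 of them were low-score libraries. The part of depth and of library quality in these levels was not tested. Sample number, depth, cell and embryo of origin cannot be told apart here, since the labels do not say which libraries share an embryo.

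The comparison of 3 AB with 10 other 13-cell libraries had wide errors. Row 8764 averaged 1183 ± 446 CPM in AB cells and 730 ± 1462 CPM in the other cells (SD). On the log2 scale edgeR put AB higher by 0.65 ± 1.69 (SE), at an adjusted p of 0.882. Row 11958 averaged 546 ± 274 CPM in AB cells and 263 ± 300.2 CPM in the other cells, and was put higher by 1.11 ± 1.01 (SE), at an adjusted p of 0.735 by edgeR. The median of all tested rows was 0.27, but -0.18 with DESeq2's size factors. Of 364 rows tested 0 were called by edgeR (0%), 23 had an unadjusted p under 0.05, and DESeq2 called 24 rows, none of them among the 3. Without low-score libraries both log2 fold changes turned, to -1.26 and -0.38. With only the 9 libraries of sample number over 100, AB is 1 library, AB3, assumed to vary like the others. The log2 fold change of row 8764 was then 4.41 by edgeR. AB3 was the deepest of the 9, with 103039 counts, and the other 8 were all low-score libraries, which AB3 was not. The part of depth and score in that value was not tested. Over all settings the adjusted p of row 8764 reached 0.961.

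**Figure D3:**
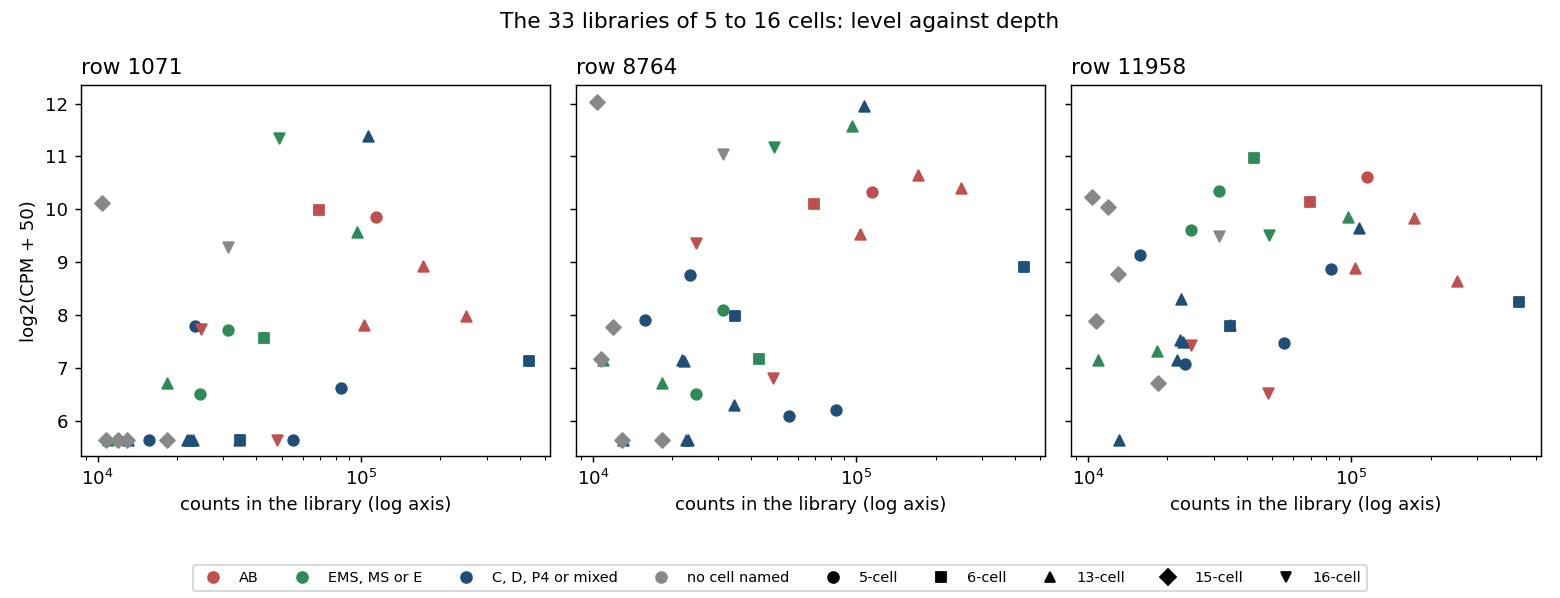
Level of each row as log2(CPM + 50) against the total counts of the library (log axis) in the 33 libraries of 5 to 16 cells, coloured by the cell in the title and with a marker for each stage. Libraries with many counts are more often high in row 1071 and row 8764, with the 15-cell library of 10393 counts as the clearest exception.

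Depth was tied to the levels over the whole bin. In its 10 libraries of at least 50000 counts the median of row 1071 was 319 CPM, against 0 CPM in the 23 shallower ones. For row 8764 these medians were 1143 and 91.8 CPM, and for row 11958 589 and 174.2 CPM. The libraries that were not low-score (15) had medians of 435, 1232 and 671 CPM for row 1071, row 8764 and row 11958, against 0, 47.7 and 180 CPM in the 18 low-score libraries. In the E2 to E8 bin row 8764 had a median of 970 CPM in 15 libraries that were not low-score and 59.3 CPM in 21 that were. The score was computed from rows that include row 8764 and row 11958, so a split of their levels by it is partly fixed in advance. With libraries of at least 50000 counts alone 86 rows met the rule, all 3 rows included, and the 5 to 16 cell bin then exceeded E2 to E8 by 0.88, 0.17 and 0.67 for row 1071, row 8764 and row 11958. Without low-score libraries 48 rows met it, again with all 3. Both of these settings were chosen after the data were seen, and the part of depth in the levels was not tested.

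In 5- and 6-cell embryos the AB libraries, 1 of each stage, held the most of row 1071 and row 8764. The rule had used these values, and without either AB library neither row met it. The high level in AB is therefore partly fixed by the choice of rows, and the tests of these rows given below are not independent of it. Row 1071 had 874 CPM in the 5-cell AB library and 967 CPM in the 6-cell AB library (100 and 67 counts), against 0 to 170.8 CPM with a median of 47.7 CPM in the 9 libraries of other cells. The groups did not overlap. Row 8764 had 1232 and 1053 CPM in these AB libraries, against 18.1 to 432 CPM with a median of 190.7 CPM in the other cells, again without overlap. How many of all rows also lack overlap between these groups was not counted, so the lack of overlap cannot be taken as particular to these rows. These comparisons of AB with other cells before 13 cells were added after the values had been seen.

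These AB differences did not pass the test by edgeR, which called 0 of 1003 rows (0%), with 11.8% at an unadjusted p under 0.05. The log2 fold change was 3.44 ± 0.80 for row 1071 (SE, adjusted p = 0.0824 by edgeR) and 2.58 ± 0.80 for row 8764 (SE, adjusted p = 0.161 by edgeR), beside a median of -0.35 over all tested rows. With no filter on low counts edgeR called 0.714% of rows, among them row 1071 with an adjusted p of 0.00535. DESeq2 called 0.827% of the 16799 rows with counts, a base that includes any rows it gave no adjusted p. Among the called rows were row 1071 with 3.97 (adjusted p = 0.00144 by DESeq2) and row 8764 with 3.11 (adjusted p = 0.0292 by DESeq2). Over all settings the adjusted p ran from 0.00144 to 0.951 for row 1071 and from 0.0292 to 0.951 for row 8764. Both AB libraries had more counts (114408 and 69306) than most others at these stages, whose median was 34693, and neither was low-score, against 6 of the 9 others. The deepest library of all 11, a 6-cell mixture titled P4D with 432918 counts, held 90.1 CPM of row 1071 and 432 CPM of row 8764, below both AB libraries.

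Row 11958 was high in AB and in EMS. It had 1503 and 1082 CPM in the 5-cell and 6-cell AB libraries. The EMS libraries held 732 and 1244 CPM at 5 cells and 1961 CPM at 6 cells. The 6 libraries of C, P4 and D cells, some of them mixtures, ran from 85.4 to 508 CPM with a median of 212 CPM, below all 5 of the AB and EMS libraries. AB over all other cells was 0.89 ± 1.05 on the log2 scale (SE), at an adjusted p of 0.632 by edgeR. Splitting EMS from C, P4 and D was a choice made on these values and was not tested. The rule had used these values too. It was not counted how many of all rows separate these cells in the same way, so the separation cannot be taken as particular to row 11958. The 3 EMS libraries were low-score ones of 24583 to 42836 counts.

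**Figure D4:**
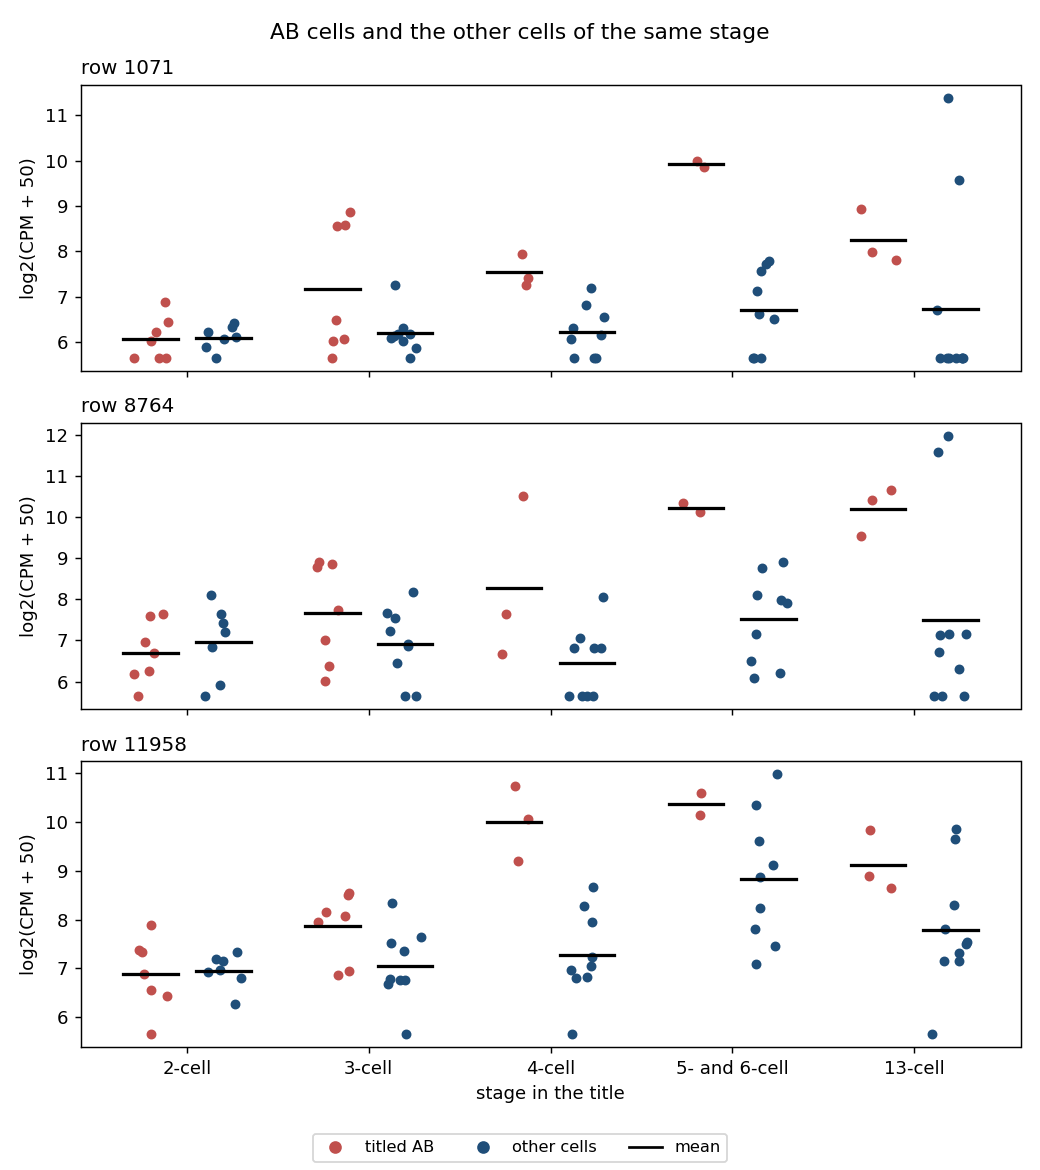
Level of each row as log2(CPM + 50) in libraries titled AB (left of each pair) and in the other cells of the same stage (right), in libraries of at least 10000 counts, with the mean as a bar. At 5 and 6 cells the AB points of row 1071 and row 8764 lie above all points of the other cells, and at 4 cells the same holds for row 11958.

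At 4 cells the AB libraries held more of row 11958 than the others, but with all libraries the difference did not pass the test by edgeR. The 3 AB libraries held 1018, 1651 and 537 CPM, against 0 to 356 CPM with a median of 82.8 CPM in the 9 libraries of other cells, where the highest was EMS. The groups did not overlap and the log2 fold change was 2.92 ± 0.80 (SE, adjusted p = 0.223 by edgeR), beside a median of -0.30 over all tested rows. It was not counted how many of all rows also lack overlap here. Of 519 rows tested edgeR called 0 (0%), with 41 at an unadjusted p under 0.05, and DESeq2 called 1, which was none of the 3. Without the EMS library row 11958 was called, with 3.64 and an adjusted p of 0.0233 by edgeR, as the only row of 466 (0.215%). Without low-score libraries it was called as well, at 3.24 with an adjusted p of 0.0395 by edgeR, as 1 of 14 among 830 rows (1.69%). Over all settings its adjusted p reached 1. Row 1071 had 196, 103.2 and 119.4 CPM in the AB libraries, from 5, 2 and 12 counts, against 0 to 94.9 CPM in the others, and did not pass the filter on low counts. No order can be read there, since 0 counts in the shallowest of the other libraries allowed up to 295 CPM. Row 8764 had 1409, 51.6 and 149.2 CPM in the same AB libraries, against 0 to 218 CPM in the others, so that its groups overlapped.

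At 3 cells the AB libraries disagreed among themselves. Row 1071 had 326, 331 and 415 CPM in AB replicates 1, 6 and 7, and 0 to 39.4 CPM in the other 4, against 0 to 102.98 CPM in the 9 EMS and P2 libraries. In the same 3 AB libraries row 8764 had 426, 390 and 410 CPM, against 14.7 to 162.2 CPM in the other AB libraries and 0 to 239 CPM in EMS and P2. None of these 3 AB libraries was a low-score one, against 3 of the other 4, and the part of this score was not tested. The EMS and P2 libraries with those same replicate numbers held 0 to 29.3 CPM of row 1071. By edgeR the log2 fold change of AB over EMS and P2 was 1.16 ± 0.56 for row 8764 (SE, adjusted p = 0.492) and 1.20 ± 0.48 for row 11958 (SE, adjusted p = 0.438). Of 1754 rows edgeR called 0 (0%), with 9.75% at an unadjusted p under 0.05, and DESeq2 called 5. Row 1071 did not pass the filter, and DESeq2 gave it 3.01 with an adjusted p of 0.0545.

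At 2 cells no difference between AB and P1 was detectable in the 3 rows. Row 1071 had a median of 14.7 CPM (0 to 67.5) in 7 AB libraries and 19.1 CPM (0 to 35.5) in 7 P1 libraries. The medians were 54.2 and 97.6 CPM for row 8764, and 68.7 and 74.1 CPM for row 11958, in AB and in P1. None of the 3 passed the filter on low counts at this stage, where edgeR called 0 of 1536 rows (0%), with 94 at an unadjusted p under 0.05, and DESeq2 called 0.

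Neighbouring stages before and after the bin were compared too, and no chosen row that was tested passed edgeR's threshold. In 4-cell against 3-cell embryos (12 and 16 libraries) row 11958 had medians of 148.1 and 123.4 CPM, and its log2 fold change was 1.19 ± 0.53 (SE, adjusted p = 0.356 by edgeR). Of 643 rows 0 were called (0%), with 68 at an unadjusted p under 0.05, and DESeq2 called 15, none of them among the 3. In E4 against E2 (14 and 11 libraries) 38 of 234 rows were called (16.2%) and neither of the 2 chosen rows tested was among them. The median log2 fold change over all tested rows was 0.18, or 0.04 with DESeq2's size factors. Row 8764 had medians of 930 CPM at E4 and 293 CPM at E2, and edgeR put E4 higher by 0.45 ± 0.59 on the log2 scale (SE, adjusted p = 0.549). Row 11958 had medians of 282 CPM at E4 and 387 CPM at E2, with -0.77 ± 0.45 (SE, adjusted p = 0.158 by edgeR).

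In anterior and posterior libraries of the E8 and Comma stages row 1071 stayed at or below 50.1 CPM. Row 8764 had medians of 37.1 CPM (0 to 214) in anterior and 79.8 CPM (0 to 665) in posterior E8 libraries, and of 34.9 CPM (0 to 236) and 35.6 CPM (0 to 318) in anterior and posterior Comma libraries. At E8, row 11958 held 0 to 352 CPM with a median of 136.2 CPM in 5 anterior libraries, and 220.4 to 1915 CPM with a median of 382.5 CPM in 6 posterior ones, and did not pass the filter on low counts. Where other settings let it be tested, its adjusted p was 0.703 to 0.996 by edgeR or DESeq2. There edgeR called 0 of 202 rows (0%), with 11 at an unadjusted p under 0.05, and DESeq2 called 7. At Comma, row 11958 had medians of 345 CPM in 6 anterior and 356 CPM in 5 posterior libraries, and the log2 difference was -0.05 ± 0.59 (SE), at an adjusted p of 0.966 by edgeR. Its sign turned under several settings. Of 371 rows edgeR called 0 (0%), with 27 at an unadjusted p under 0.05, and DESeq2 called 0.

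The libraries under 10000 counts, which the rule had not used, were compared as 2 pooled groups, which is not the rule's comparison of bin means. They comprised 20 libraries of 5 to 16 cells, 10 of these from 15 cells, and 14 of the other stages. The 14 were 2 of 3 cells, 3 of 4 cells, 6 of E2, 1 of VE and 2 of Comma, and none of E4, E8 or LE. Row 11958 had a median of 215 CPM (0 to 2226) at 5 to 16 cells and 237 CPM (0 to 1512) at other stages, and the log2 difference was 0.12 ± 0.52 (SE), at an adjusted p of 0.984 by edgeR. Of 246 rows edgeR called 0 (0%), with 16 at an unadjusted p under 0.05, and DESeq2 called 0. Row 8764 was lower at 5 to 16 cells, at a median of 0 CPM (0 to 453) against 157.9 CPM (0 to 3348) at other stages. All 6 shallow E2 libraries held it, at 330.1 to 3348 CPM. It did not pass the filter. With no filter it was called, at -3.09 with an adjusted p of 0.00145 by edgeR, among 63 of 15508 rows (0.406%), and DESeq2 gave -3.39 with an adjusted p of 0.0889. Row 1071 had counts in 3 of the 20 libraries of 5 to 16 cells and in 4 of the 14 others, all 4 of them E2 libraries.

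Row 1071 and row 8764 moved together across libraries. Pearson's r of their log2(CPM + 50) was 0.74 over the libraries of all 4 bins, 0.90 within the 33 libraries of 5 to 16 cells and 0.80 in the 71 libraries of at least 50000 counts. Row 11958 was less like either, with 0.50 to row 1071 and 0.45 to row 8764 over the same libraries. Points share stage, cell and depth, and the values are a description. Among 6664 rows with at least 500 counts, row 8764 was the row second in likeness to row 1071, after row 8765.

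Row 8764 was most like the 2 rows that follow it in the table. Its r was 0.90 to row 8765 and 0.88 to row 8766, and row 2594, one of those just below the span limit, came next with 0.87. Row 8765 and row 8766 had an r of 0.98 to each other. Rows that stand next to each other had a median r of 0.08 over 2771 pairs, and 10 such pairs reached the r of row 8764 and row 8765. Counts of reads that fit more than 1 similar transcript could be shared between such rows, which was not tested, since the sources used here do not give the settings of the counting. Row 8765 and row 8766 averaged 6.97 ± 1.63 and 7.0 ± 1.64 on the log2 scale at 5 to 16 cells and 7.05 ± 1.47 and 7.03 ± 1.49 at E2 to E8, so they were highest in the later bin and stayed outside the rule. Row 11958 was most like row 15669, with 0.61, then row 3491 with 0.59 and row 2668 with 0.58. None of these was highest at 5 to 16 cells.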

How the data were processed

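The authors deposited raw counts per row for each library. CASAVA 1.8, Bowtie2 2.1.0 and HTSeq 0.5.4p3 are named in the submitters' processing notes. Not given in the sources used here were their settings, the genome build and any use of molecular identifiers. In the deposited table the highest value was 1024, reached 22 times. Stages and cells were taken from the titles, with spaces removed, and 13 Comma or VE titles carry the stage label gastrula. For 9 libraries the column name also resembled another title, so these were matched to their group only and carry no replicate number.

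CPM used each library's total over all 16853 rows. Tests were run on the deposited counts with edgeR 4.0.16 in R 4.3.3 (TMM, quasi-likelihood with robust dispersion, filterByExpr with a minimum count of 10, or 2 in libraries under 10000 counts, and a minimum total of 15), fitted on all rows and called at an adjusted p under 0.05. The fit was checked on simulated counts. Alternatives were DESeq2 1.42.0, its size factors, no filter, thinning to 10000 counts, other depth limits and libraries left out. The members and all lists were chosen with earlier results of these data known. The named rows were all members, the 3 nearest below the span limit and the 3 most correlated with each. Same-numbered libraries were not treated as pairs, since not every pair's correlation of deviations was above 0.1. That limit cannot show that they come from different embryos. The labels do not say which libraries share an embryo, so p-values measure the spread between libraries.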

Additional observations from a re-analysis of the deposited data

Results flagged for a closer look

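Sets of 4 to 10 libraries of 1 stage, or of 1 cell or region, were searched for each of the 3 rows. A search looked for a highest or lowest value far from the rest by Dixon's criterion at 95%. Of 48 searches, each of 1 row in 1 set, 11 gave one. Chance gives about 1 search in 20 for independent, normally distributed values. These searches share libraries and sets and hold many values of 0, so their own rate is not known. Row 1071 stood apart in the second 5-cell AB library with 874 CPM and in the first 6-cell AB library with 967 CPM, and row 8764 in that same 5-cell AB library with 1232 CPM. The third 15-cell library, of 10393 counts, stood apart for row 1071 with 1058 CPM and for row 8764 with 4137 CPM. In the eighth 3-cell EMS library row 1071 had 102.98 CPM from 3 counts.

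Among late embryos the fifth middle library of the Comma stage had 1021 CPM of row 8764 and 92.8 CPM of row 1071. An anterior Comma library without a replicate number had 236 CPM of row 8764 and the second middle one 685 CPM of row 11958. The third VE library of the anterior pharynx had 84.5 CPM of row 1071 from 2 counts. The 14 libraries whose titles begin with E alone entered no comparison, and of these 2 held more than 3 counts of row 1071, 3 of row 8764 and 4 of row 11958.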

How the results depend on the processing

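The number of rows that met the rule was 3. It was 2 with a pseudocount of 100 CPM (row 1071 lost), 2 with bin medians (row 11958 and row 18) and 3 with titles not stripped of spaces (row 62 in place of row 8764). It was 12 with a pseudocount of 10 CPM (row 1071 lost) and 12 with libraries of at least 20000 counts, 10 with at least 5000, 86 with at least 50000, 8 after thinning, 7 with a mean of stage means, 5 without 15-cell libraries, 48 without low-score libraries, and 1 to 4 with each library left out. Calls are given here as a share of the rows that each setting tested, a number which differs between settings. For DESeq2 the share is of all rows with counts, including rows that it gave no adjusted p. Its shares would be higher over the rows with an adjusted p alone. At 13 to 16 against 5 and 6 cells the share was 2.42%. It was 3.81% with DESeq2's size factors, 0.148% with DESeq2, 1.21% with no filter, 2.86% thinned, 1.03% at 20000 counts, 0% without low-score libraries and 1.46% to 6.47% with a library left out, with 0 to 1 of the chosen rows. For 13-cell AB the share was 0%, and it was 0.144% (DESeq2), 3.28% (no filter), 17% (sample number over 100, with 1 chosen row) and 0% to 0.667% with a library left out. The log2 fold changes of row 8764 and row 11958 there turned to -1.26 and -0.38 without low-score libraries.

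For 4 against 3 cells the share was 0%, and it was 0.0891% (DESeq2) and 0.435% (without low-score libraries). For E4 against E2 it was 16.2%, and it was 0.381% (DESeq2), 1.38% (no filter), 0% (thinned) and 0% (without low-score libraries, where row 8764 turned to -0.71). For E8 regions it was 0%, and it was 0.0421% (DESeq2), 0.132% (no filter) and 4.9% (without low-score libraries). For Comma regions it was 0%, and it was 0.5% (no filter) and 1.04% (without low-score libraries). Row 11958 between Comma regions turned to 0.14 with DESeq2 and 0.18 with no filter, and ran from -0.31 to 0.34 with a library left out. Low-count libraries gave 0%, and 0.406% with no filter, with 1 chosen row.

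For 3-cell AB the share was 0%, and it was 0.0297% (DESeq2), 0.0238% (no filter) and 1.54% (thinned). For 4-cell AB it was 0%, and it was 0.00604% (DESeq2), 0.145% (no filter), 0.535% (at 20000 counts), 1.69% (without low-score libraries, 1 chosen row) and 0% to 0.498% with a library left out, with 0 to 1 chosen rows. For 5- and 6-cell AB it was 0%, and it was 0.827% (DESeq2, 2 chosen rows), 0.714% (no filter, 1 chosen row), 1.58% (without low-score libraries, 1 chosen row) and 0% to 0.127% with a library left out. The causes of these shifts were not tested.

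With the replicate number as a block, 0.13% of rows were called for 2-cell AB against P1 and 0% in the other comparisons with shared numbers. At 2 cells 6 of 7 same-numbered pairs correlated above 0.1 and 1 did not, at -0.05, and in no comparison did every pair, so the numbers were not taken to pair libraries. Pairing at 2 cells is not excluded by this. Stage comparisons allow no block, since an embryo has 1 stage. Depth limits the levels. In the shallowest library of 5 to 16 cells that the rule used, of 10393 counts, 1 count is worth 96.2 CPM. It is worth more in any shallower library, as in those under 10000 counts. Levels from fewer than 3 counts are poorly determined.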
